A study of Caenorhabditis elegans with 15 samples.

Results

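Whole Caenorhabditis elegans of the genotype labelled u74 KO were compared with wild-type animals of the strain N2, gene by gene, at the L4 larval stage. The comparison used 1 deposited average per genotype, built from 3 u74 and 6 N2 libraries of the 15 in the series, and took every gene with at least 20 normalized counts in either average. This kept 17004 of 46926 genes. RNA was selected for poly(A) before short-read sequencing. The other groups of the series carry the labels mec-8 (e398) KO and u218 KO, with 3 libraries each, and their averages are quoted only beside the u74 values. The u74 label names no gene, while the title of the series concerns mec-8; u74 is the name of a described mec-8 allele. Strain N2 is also given for the mutant samples, so the labels show no transgene, marker or treatment, and no source used here says how many animals or cultures stood behind a library. Nothing in the labels says that the libraries of a genotype came from separate cultures, so the spread between them may be technical.

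MEC-8 is an RNA-binding protein that controls alternative splicing of transcripts in touch receptor neurons, muscle and epidermis. Its described targets include mec-2, a stomatin-like part of the touch channel complex, unc-52, the basement-membrane perlecan, fbn-1, a fibrillin-like matrix protein, and sad-1, a neuronal polarity kinase. L4 is the last larval stage, in which sperm form in the hermaphrodite gonad, the vulva and uterus are shaped, and the epidermis makes the matrix of the coming adult cuticle before the switch to oocytes. The deposited values are sums per gene, so splice forms were not separated.

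The table gives no value per library, but at low levels an average can be written in only 1 way as whole reads of its libraries, which gave library values for u74 averages below 350 and N2 averages below 10. Libraries are numbered by falling size factor within a genotype, and these numbers are not the replicate numbers of the labels. The size factors of the 3 u74 libraries ran from 1.46 to 1.95. The 6 N2 libraries fell into 3 of large size factor, from 1.59 to 1.82, and 3 of small size factor, from 0.471 to 0.531. These sets differed in low genes. Among 3686 genes with all 9 libraries resolved and an N2 average of 2 to 10, the mean was 2.66 normalized counts over the N2 libraries of large size factor, 6.80 over those of small size factor and 2.71 in u74. The 3 u74 libraries, at 2.45, 2.58 and 3.11, lay inside the range of the large-size-factor N2 libraries, from 2.00 to 3.46, and below all of the others, from 5.13 to 9.16. Of these genes, 2322 were at least 2-fold below the N2 average in u74, and 304 of them were at least 2-fold below the mean of the large-size-factor N2 libraries. The range of 2 to 10 was set on the N2 average alone, and 1 read weighs more in a library of small size factor. The choice thus leans toward genes high in those libraries and low in u74, and neither the means nor the counts take account of it. Above an N2 average of 10 the N2 libraries could not be separated. The difference between the N2 sets in more abundant genes was therefore not tested. The arithmetic of the averages sets 1 limit. A gene at least 2-fold above the N2 average in u74 was also above the mean of either set of 3 N2 libraries, and a gene at least 4-fold above was at least 2-fold above both. A lower gene was lower by its stated ratio than at least 1 of the sets, and which of them was not resolved.

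**Figure D1:**
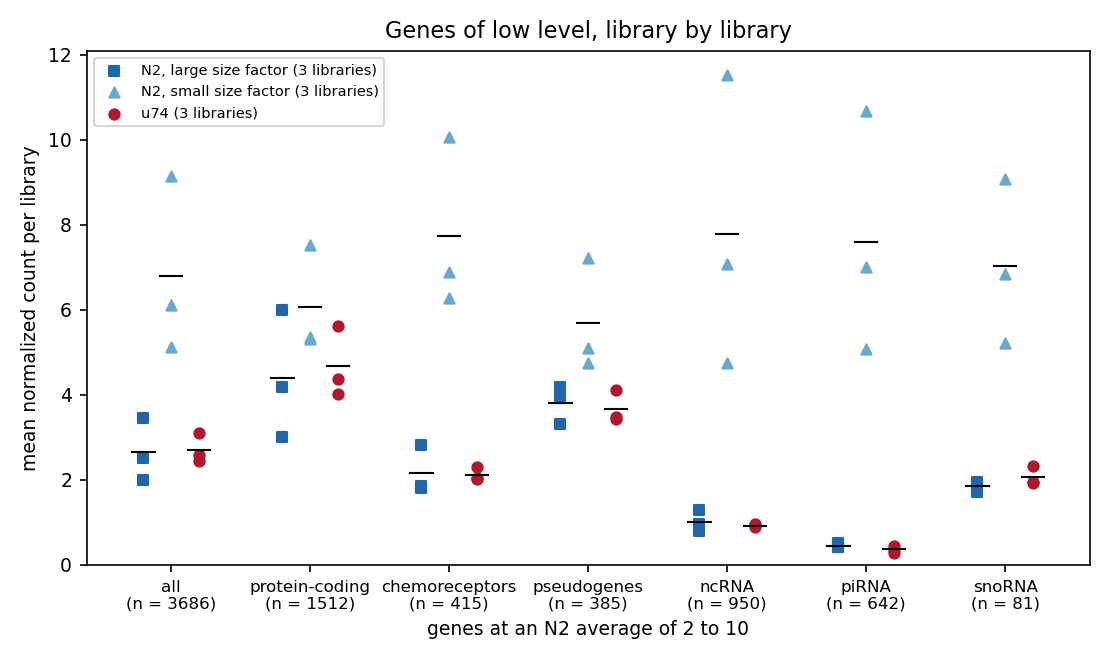
Mean normalized count of each library over genes at an N2 average of 2 to 10 with all 9 libraries resolved, for all such genes and for kinds of gene. Each point is 1 library, and black lines are means of 3 libraries. The range of 2 to 10 was set on the N2 average alone, which leans toward genes high in N2. In all 7 kinds the u74 libraries lie near the N2 libraries of large size factor, at 2.71 against 2.66 for all genes and 0.368 against 0.455 for piRNA genes, and below the mean of the N2 libraries of small size factor.

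Of the 17004 genes, 1101 (6.47%) were at least 2-fold higher in the u74 average and 4930 (29%) at least 2-fold lower. At 4-fold, 65 genes (0.382%) were higher and 2944 (17.3%) lower. The ratio is log2((u74 + 1)/(N2 + 1)) throughout, and its median over all genes was -0.07. Scaling by trimmed means moved every ratio up by 0.18, and the share of higher genes among all called genes then went from 18.3% to 30.7%. The columns summed to 97187743 normalized counts in N2 and 63068771 in u74, and the 10 most abundant genes took 12.2% and 6.13% of them. Because the material was whole animals, fewer cells of a type and less RNA per cell cannot be told apart in any of these values.

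**Figure D2:**
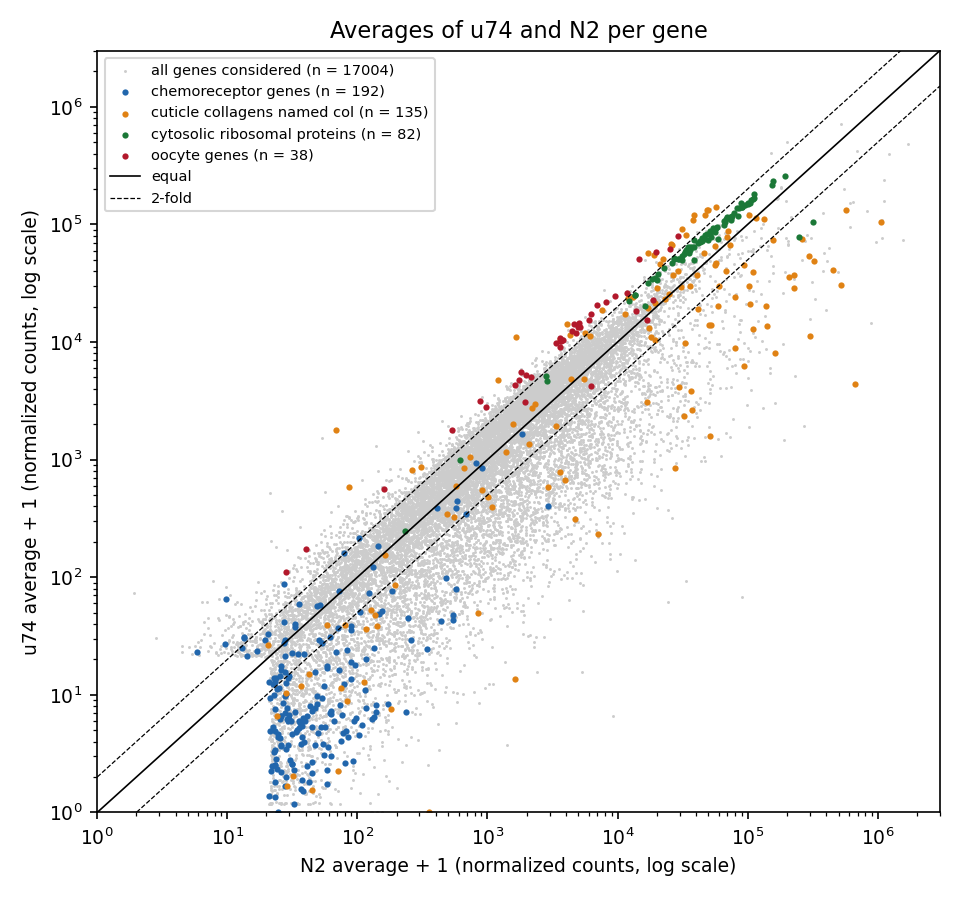
N2 average against u74 average for the 17004 genes considered, each plus 1 normalized count, on log axes, with 4 gene lists in colour. The oocyte genes and most ribosomal protein genes lie above the line of equal values, chemoreceptor genes mostly below it, and collagens on both sides.

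Over 5235 resolved genes at 20 normalized counts or more, the median coefficient of variation across the 3 libraries was 20.1%. In 3180 of the 4930 lower genes the u74 libraries were resolved, and all 3 stood at or below the N2 average in each of these 3180 genes. In 2850 of them all 3 u74 libraries were at or below 0.5 times the N2 average. The same 2850 genes make up 43% of all 6633 genes with resolved u74 libraries. That share is no independent background, since a gene within this limit is nearly always called lower. Of the 1101 higher genes 380 were resolved, and all 3 libraries were at or above the N2 average in 352 of them. Library 3 was the highest of the 3 in 285 of these 380 genes, library 1 in 49 and library 2 in 46.

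mec-8 itself had 2239 normalized counts in u74 and 1956 in N2, a log2 ratio of 0.19. The gene overlaps C17E4.10, and a count per gene does not show a sequence change. Its average was 1070 in e398 and 3620 in u218. The described splicing targets were all below N2 in u74. fbn-1 had 2373 against 31580 normalized counts, a log2 ratio of -3.73, and it overlaps upp-1. mec-2 had 606 against 2136 (-1.82), and sad-1 had 753 against 1627 (-1.11). unc-52, at 57984 against 109901, had a ratio of -0.92 and missed the 2-fold limit. The fbn-1 average was 23972 in e398 and 13768 in u218. Splicing regulators as a list stood on the other side, with a median of 0.43 over 31 genes. None was 2-fold higher and 3 were 2-fold lower, among them asd-2, a STAR-family splicing factor, at -2.06 and hrpa-1, an hnRNP A1 homolog, at -1.37.

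Touch receptor neuron genes were lower. Of 21 listed genes above the minimum, 12 were lower by 2-fold or more and none higher, and the median was -1.46. Genes for the special microtubules of these neurons were among the lower ones. mec-7, a beta-tubulin, had 1581 normalized counts in u74 against 15101 in N2 (-3.25), and mec-12, an alpha-tubulin that overlaps Y53G8B.1, had 3155 against 34999 (-3.47). mec-17, the alpha-tubulin acetyltransferase, had 1378 against 15261 (-3.47). For genes of lower level the u74 libraries could be read singly. mec-4, the pore subunit of the touch channel, had 123, 104 and 95.3 normalized counts in the u74 libraries against an N2 average of 278. mec-18 had 323, 345 and 285 against 877. mtd-1, which overlaps pole-1, had 249, 248 and 175 against 2608, the lowest ratio of the list (-3.54). In each of these 3 genes every u74 library lay below 0.5 times the N2 average, as did all 8 lower touch genes with resolved u74 libraries. Over all lower genes with resolved u74 libraries this held for 2850 of 3180. mec-15, an F-box gene of these neurons, had the highest ratio of the list, 0.73. The medians of the same 21 genes were 0.18 in e398 and -0.72 in u218, against the same N2 average.

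Other neuronal lists separated by function. Of 53 genes of cilia and intraflagellar transport, the machinery of sensory endings, 38 were lower by 2-fold or more and 1 higher, and the median was -1.63. osm-5, an intraflagellar transport subunit, had 215, 198 and 188 normalized counts in the u74 libraries against an N2 average of 1930. daf-19, the transcription factor that drives ciliary genes, had 798 against 1689 (-1.08). Receptor guanylate cyclases were lower in 25 of 32 genes (median -1.72), degenerin channels in 19 of 28 (-1.44) and insulin-like peptides in 15 of 27 (-1.73). ins-33 had 161, 136 and 125 normalized counts in u74 against 13678 in N2. In all these lists the median lay far below the -0.07 of all genes. Pan-neuronal and synaptic genes were nearer to it, and near the 29% of all genes at least 2-fold lower. In this list 11 of 37 were lower and 1 higher, with a median of -0.34. Within that list unc-25, which makes the transmitter GABA, had 1596 against 28321 normalized counts (-4.15), and egl-21, a carboxypeptidase that processes neuropeptides, had 7295 against 29217. FMRFamide-like peptide genes had a median of 0.23, with 8 of 30 lower. The general neuronal markers were within 2-fold, with rab-3 at -0.33, unc-119 at 0.45 and snb-1 at 0.71.

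Chemoreceptor genes, which encode the receptors for odours and tastes, were lower in 144 of 192 members and higher in 8, with a median of -2.49. They sit at low levels, where the N2 sets differed. Among 415 chemoreceptor genes at an N2 average of 2 to 10, the mean was 2.16 normalized counts in the large-size-factor N2 libraries, 7.74 in the others and 2.12 in u74. Of these, 267 were at least 2-fold below the N2 average, and 45 of the 267 were at least 2-fold below the large-size-factor libraries. The 415 genes were chosen by the N2 average alone, which leans toward genes high in N2. One receptor gene went the other way. str-151 had 81.6, 53.7 and 58.3 normalized counts in u74 and from 0 to 19.1 in the 6 N2 libraries, with no overlap.

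**Figure D3:**
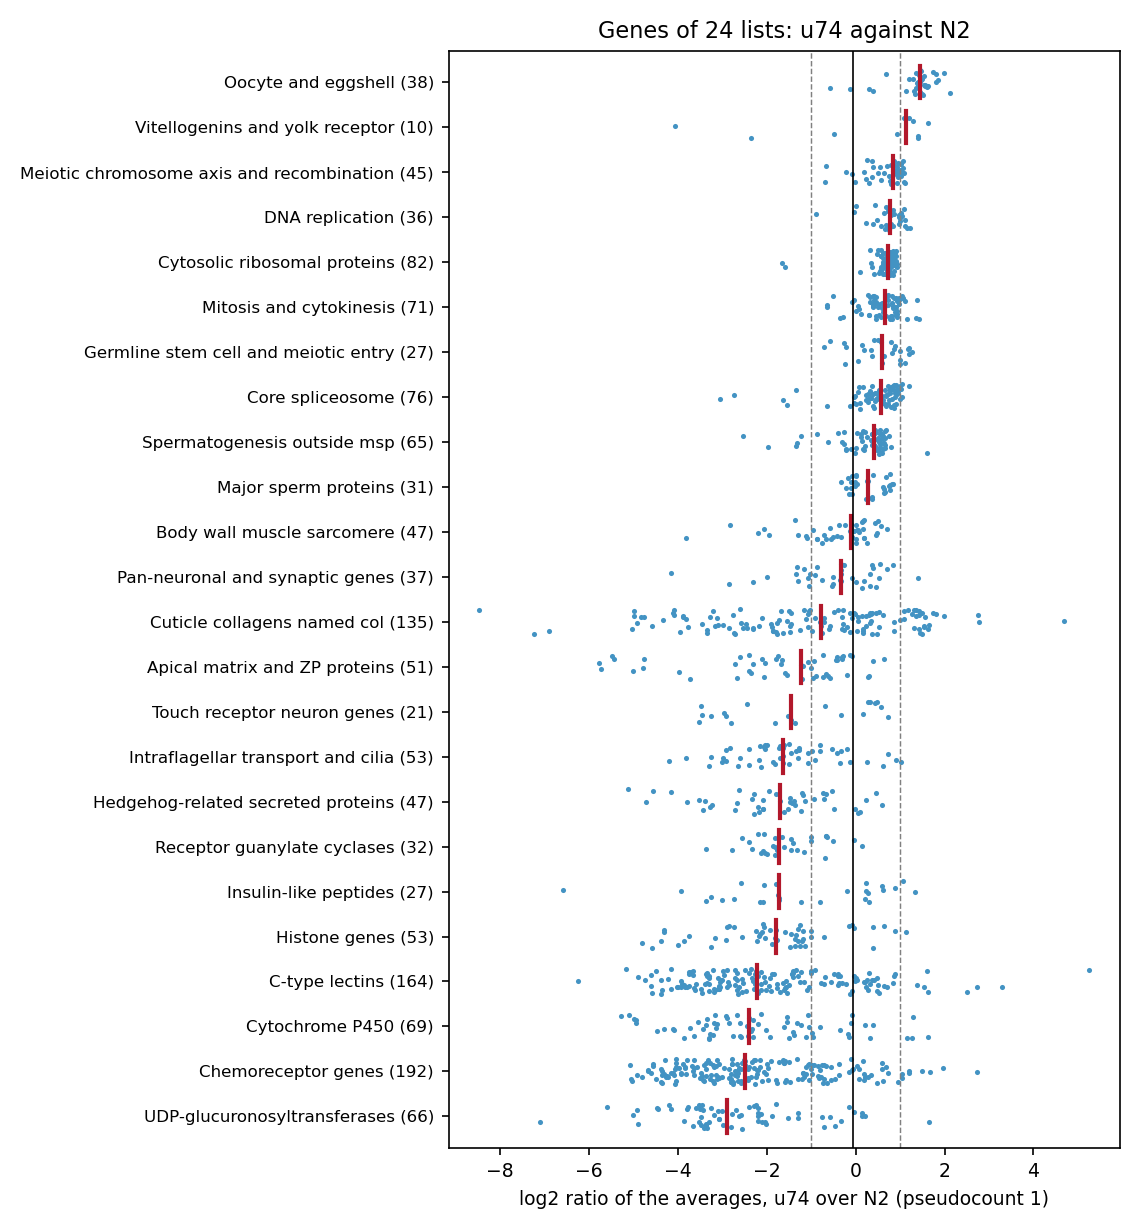
Log2 ratio of the u74 to the N2 average for the genes of 24 lists, ordered by their medians (red bars), with the number of genes considered in brackets. Each point is 1 gene, the black line is the median of all genes, -0.07, and dashed lines mark 2-fold. Medians run from 1.45 for oocyte and eggshell genes to -2.89 for UDP-glucuronosyltransferases.

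Oocyte and eggshell genes were higher. Of 38 genes, 33 were at least 2-fold higher in u74 and none was 2-fold lower, with a median of 1.45, so these 33 stood above the mean of either set of N2 libraries. cbd-1, a chitin-binding protein of the eggshell, had 79060 normalized counts against 28968 (1.45). cpg-1 and cpg-2, chondroitin proteoglycans of the eggshell, had 51282 against 14628 (1.81) and 58138 against 19720 (1.56). oma-1, a zinc-finger protein of oocyte maturation, had 9061 against 3592 (1.33), and rme-2, the yolk receptor of oocytes, 27427 against 11919 (1.20). cav-1, a caveolin, was resolved in u74, with 60.1, 143 and 316 normalized counts in the 3 libraries against an N2 average of 39.2. All 3 of its libraries were above the N2 average, and library 3 was more than 5 times library 1. perm-3, an eggshell permeability gene, had the lowest ratio, -0.58. The same list had medians of -2.66 in e398 and -2.41 in u218 against the shared N2 average.

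Yolk genes stood with the oocyte genes. vit-1, vit-2, vit-5 and vit-6, the yolk proteins made by the intestine, had ratios of 1.62, 1.41, 1.39 and 1.30, and vit-6 was the most abundant at 498418 normalized counts in u74 against 202307 in N2. vit-2 overlaps C42D8.9. In the 10-gene list 6 were higher and 2 lower. One of the lower genes was mab-3, a regulator that represses yolk genes in males, with 211, 165 and 134 normalized counts in u74 against 2862 in N2. col-19, an adult-stage collagen, had 67364 against 26368 (1.35). lin-41, a germline and developmental-timing gene, had 13407 against 5174 (1.37). lin-29, the transcription factor of the larva-to-adult switch, had 1468 against 5222 (-1.83), and it overlaps hmg-12.

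Genes of the proliferating and meiotic germline were also above N2, mostly by less than 2-fold. Meiotic chromosome genes had a median of 0.84 with 9 of 45 at least 2-fold higher, DNA replication genes 0.77 with 8 of 36, mitosis genes 0.65 with 8 of 71, and germline stem cell genes 0.60 with 7 of 27. None of these lists had a gene at least 2-fold lower. Over the 17004 genes, the share that reached 2-fold higher was 6.47%. Medians of similar size were not confined to the germline lists. They were 0.72 for cytosolic ribosomal proteins, 0.58 for the core spliceosome and 0.50 for nuclear pore and import. Other lists of basic functions had smaller medians, such as 0.12 for the vacuolar ATPase and 0.06 for aminoacyl-tRNA synthetases. Whether the shift is particular to the germline was not tested. gld-1, a translational repressor of the germline, had 47517 against 19735 normalized counts (1.27). Small RNA pathway genes had a median of 0.50, with 6 of 54 at least 2-fold higher and 3 lower. Their highest ratio was that of hrde-1, a nuclear Argonaute, at 29686 against 12918 (1.20), and their lowest was -1.75. pgl-1, a P-granule protein, had 0.78 and glh-1, a Vasa-type helicase, -0.26. Sperm genes were nearer to N2. All 31 major sperm protein genes were within 2-fold, with a median of 0.27, and their sequences are so alike that reads may be shared. Spermatogenesis genes outside that family had a median of 0.41 with 1 of 65 higher and 5 lower. In u218 the same sperm lists had medians of -6.08 and -3.94, and in e398 1.38 and 0.33.

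Cuticle and apical matrix genes were lower, with collagens divided. Of 51 genes of the apical matrix, the sheet over epidermis and lumens from which cuticle is patterned, 30 were lower and none higher, with a median of -1.22. lpr-3, lpr-4 and lpr-6, lipocalin-related matrix proteins, had 5457 against 149461, 3029 against 160998 and 1879 against 102322 normalized counts. sym-1, a leucine-rich repeat protein of the same matrix, had 5159 against 232325 (-5.49), and overlaps C44H4.4. Of 47 hedgehog-related secreted proteins 35 were lower, with a median of -1.71. wrt-1 had 2194 against 76900 (-5.13). nhr-23, a nuclear receptor that drives the molting cycle, had 3625 against 17917 (-2.30). The molting proteases nas-36 and nas-37 had ratios of -2.06 and -1.19, and mlt-11, a protease inhibitor needed for molting, had -2.12. Genes of the body surface named bus, srf and sqv had a median of 0.29. Of these 19 genes, 6 were at least 2-fold lower, beside 29% of all genes, and 1 was higher. The lowest of them was bus-1, an acyltransferase homolog, which had 131, 85.9 and 57.6 normalized counts in the u74 libraries against an N2 average of 33786.

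Among 135 collagen genes named col, 25 were higher and 64 lower. col-176 had 4385 against 663482 normalized counts (-7.24), and col-125, which overlaps best-7, had 104287 against 1055564 (-3.34). col-36, which overlaps dyf-13, was listed at 0 in all 3 u74 libraries against an N2 average of 354, with 0.521 in u218 and 19.3 in e398. At the other end, col-95 had 1773 normalized counts in u74 against 67.5 in N2 (4.69), and 4.51 in e398 and 2.69 in u218. col-101, which overlaps drl-1, had 11142 against 1647 (2.76). The structural collagens of body shape were lower in 10 of 15 genes, with sqt-3 at 49254 against 406094 (-3.04) and rol-8 at 15749 against 302929 (-4.27). Of the 6 annular furrow collagens 4 were lower, dpy-9 at -4.02 and dpy-8 at -3.69, while dpy-7 at -0.85 and dpy-3 at -0.39 stayed within 2-fold.

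Genes of detoxification and defence had some of the lowest medians. UDP-glucuronosyltransferases, which attach sugar to foreign compounds, were lower in 55 of 66 genes and higher in 1, with a median of -2.89. Cytochrome P450 genes were lower in 54 of 69 (-2.39), and of 164 C-type lectins, many of them induced by microbes, 37 were within 2-fold, 8 higher and the rest lower (-2.23). Lysozymes and saposin-like proteins were lower in 23 of 40 (-1.48), and glutathione S-transferases in 22 of 44 (-1.23). cyp-13A2 had 457 against 14536 normalized counts (-4.99), gst-20 had 1071 against 62269 (-5.86), and clec-150 had 6325 against 80204 (-3.66). ugt-35, which overlaps aqp-6, had 0.513, 0.632 and 3.43 normalized counts in the u74 libraries against an N2 average of 349. Of the 26 lower UDP-glucuronosyltransferase genes with resolved u74 libraries, all 26 had every u74 library at or below 0.5 times the N2 average. The same was true of 2850 of all 3180 lower genes with resolved u74 libraries. daf-9, the P450 that makes the hormone dafachronic acid, had 254, 214 and 196 against 3930. Many of these genes act in the intestine. Among 32 intestinal transporters and markers 10 were at least 2-fold lower, a share near the 29% of all genes, and none higher. The median was -0.48, and 28 were below N2. pept-1, a peptide transporter, had -2.09 and cdr-1, a cadmium-responsive gene, -4.46, while the markers ges-1 at -0.14 and elt-2 at -0.25 were within 2-fold. The list medians in u218 were -2.31 for UDP-glucuronosyltransferases and -2.21 for P450 genes, and in e398 0.28 and 0.20.

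The most abundant of the genes at least 4-fold lower included muscle and metabolic genes. act-4, an actin that overlaps M03F4.6, had 158224 against 1119815 normalized counts (-2.82). pat-10, body wall troponin C, had 75983 against 1071314 (-3.82), and clik-1, a calponin-like muscle protein, 70763 against 978151 (-3.79). ant-1.1, a mitochondrial ADP/ATP carrier, had 237925 against 1110975 (-2.22). pho-11, an intestinal acid phosphatase that overlaps C05C10.3, had 14637 against 895550 (-5.93). The average of pat-10 was 1857066 in e398 and 102595 in u218. Body wall sarcomere genes as a list were close to all genes, with a median of -0.10 that turned to 0.08 after scaling by trimmed means. Of 47, 9 were lower and none higher. unc-54, the major myosin of the body wall, had a ratio of -0.72, and unc-15, paramyosin, -2.06.

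Single members stood far below complexes that were otherwise even. This pattern was looked for after the values were seen, as members at least 2-fold from their list's median. Over the 82 cytosolic ribosomal protein genes the median was 0.72 and the quartiles 0.62 and 0.80, and 2 were at least 2-fold from it. These were rpl-12, at 78825 against 247071 normalized counts (-1.65), and rpl-7A, at 104250 against 315492 (-1.60), which overlaps Y24D9A.9. In the worm, transcripts of both are known to be spliced also into forms that nonsense-mediated decay removes. Sums per gene do not separate such forms, and a link to these values was not tested. atp-1, the alpha subunit of ATP synthase, had 153202 against 612583, while atp-2, the beta subunit, had 166039 against 169430 (-0.03). Of the subunits of elongation factor 1, eef-1G had 130816 against 832766 (-2.67) and eef-1B.1 50098 against 261925 (-2.39), while eef-1A.1 had 711809 against 522378 (0.45) and eef-1A.2 58951 against 100155 (-0.76). eef-2, the other elongation factor, had a ratio of -1.61. Among 76 spliceosome genes with a median of 0.58, cyn-8, a cyclophilin, had 717 against 6006 (-3.06) and snrp-40.1, a U5 particle protein, 1030 against 6837 (-2.73). No member of the proteasome, the vacuolar ATPase, the mitochondrial ribosome or nonsense-mediated decay was 2-fold from its list's median. rpl-12 had 341431 in e398 and 114952 in u218, and atp-1 had 880896 and 219632, so that both were above N2 in e398 and below it in u218. Members at least 2-fold below their list's median also included cyn-6, hpd-1 and eef-1A.2. Their u74 ratios of -0.64, -0.57 and -0.76 were within 2-fold of N2. They were above N2 in u218, with log2 ratios of 1.41, 1.09 and 0.87 there and of -0.91, -0.51 and 0.01 in e398. hpd-1 is named from the respiratory chain list, and no part in that complex is claimed for it. The N2 libraries of the genes named from these lists could not be separated.

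**Figure D4:**
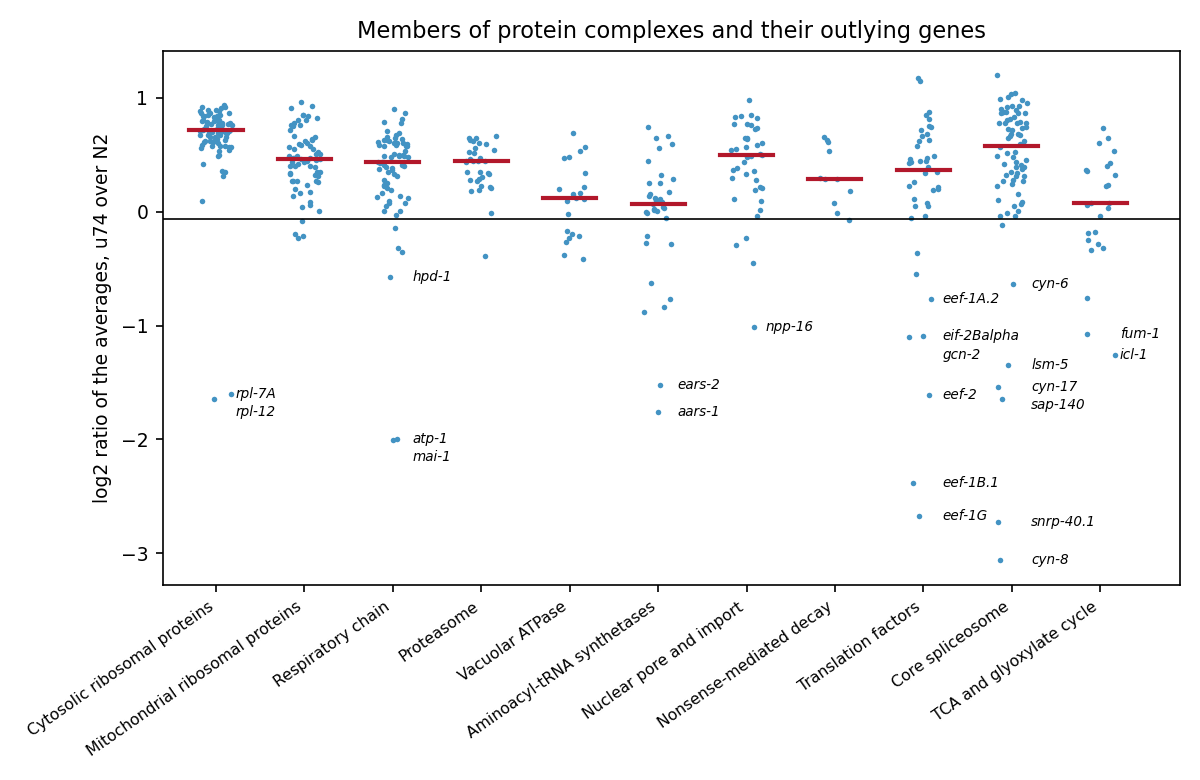
Log2 ratio of the u74 to the N2 average for the genes of 11 lists of protein complexes and basic pathways. Each point is 1 gene, red bars are list medians, the black line is the median of all genes, and genes at least 2-fold from their list's median are named. Of 82 ribosomal protein genes 2 are named, rpl-12 at -1.65 and rpl-7A at -1.60.

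Some of the lowest ratios belonged to genes with a large N2 average. D1014.6 had 4.11, 10.7 and 2.06 normalized counts in the u74 libraries against an N2 average of 9267, and its neighbour D1014.7 had 23.1, 9.48 and 11.0 against 5286. Y48E1B.8, which overlaps clec-145, had 102, 58.1 and 40.5 against 90629, and BE0003N10.6 had 61.6, 65.1 and 55.6 against 24276. In each of these 4 genes the libraries of u74 were together far under the N2 average. For D1014.6 the averages were 800 in e398 and 9.87 in u218, and for Y48E1B.8 they were 23864 and 2805. No role is given here for these 4 genes.

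Genes of RNAs that mostly lack a poly(A) tail were low in u74. Of 69 piRNA genes 68 were lower by 2-fold or more and 1 higher, and 3 of the 15 lowest ratios, 21ur-9996, 21ur-13612 and 21ur-10597, were at 0 in every u74 library against N2 averages of 153, 140 and 129. Among genes that are neither protein-coding nor pseudogenes 283 of 382 were lower, against 29% of all genes. This mixed group held 78 lincRNA genes, 43 of them lower, and its poly(A) state is not given. Of 53 histone genes, whose main transcripts end without poly(A), 44 were lower with a median of -1.79. his-16 had 6.67, 2.53 and 6.17 normalized counts in the u74 libraries against 170 in N2. The genes his-72 and his-74, which are among the polyadenylated H3.3-type histone genes, had ratios of 0.87 and 1.13. That of his-74 was the highest of the 53 histone genes. The histone gene his-69, at a low level, had a limma log2 change of -0.89 ± 0.80 (SE, limma adjusted p = 0.584). Ribosomal RNA took 0.809% of all counts in u74 and 1.87% in N2. At N2 averages of 2 to 10, 642 piRNA genes had means of 0.455 normalized counts in the large-size-factor N2 libraries, 7.59 in the others and 0.368 in u74. These 642 genes were chosen by the N2 average alone, which leans toward genes high in N2.

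Genes on chromosomes V and X were lower more often than those on the other chromosomes. Of 3611 genes on V, 39.1% were at least 2-fold lower, and of 2394 on X, 35.1%, against 19.9% of 2643 on I. The medians were -0.43 on V, -0.46 on X and 0.20 on I. Among protein-coding genes at 350 or more normalized counts in N2, 37.5% of 1467 on X and 35.9% of 2055 on V were lower, against 16.9% of 1937 on I. The medians on V and X stayed below 0 after scaling by trimmed means, at -0.25 and -0.27, while that on IV turned from -0.02 to 0.17.

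Runs of adjacent genes with a shared direction were listed. Of all genes 29% were at least 2-fold lower, and of those on V 39.1%. Whether the runs were longer than such shares give was not tested. The longest run of adjacent lower genes held 21 genes on V from 517801 to 617166, from nhr-210 to genes of the F48G7 group, with a median of -4.20. The next held 14 genes on IV from 15227814 to 15275804, pkd-2 and many piRNA genes among them, with a median of -3.52. Of all 69 piRNA genes considered, 68 were lower. A run of 11 on IV from 12958030 to 12991843 held dod-17, dod-22 and genes of F55G11 and K10D11 with a median of -2.92. Another run of 11 on V from 3912772 to 3972991 held P450 genes of the cyp-34A and cyp-35 groups, and a run of 10 on X from 10854216 to 10896598 held pgp-5, pgp-6, pgp-7 and pgp-8, which encode efflux pumps. On X from 11047446 to 11072047, lpr-3, lpr-4, lpr-5 and lpr-6 lay in a run of 7. Runs of higher genes, the rarer direction, were shorter, with 5 genes at most. One held spig-4, spig-5, F14D7.14 and F14D7.8 on V from 14306468 to 14312795, with ratios from 1.11 to 4.82. Copies of gene families in such runs may share reads. Coordinates are those of WBcel235, release 115.

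Few genes were far higher in u74, and the best resolved of them could be tested. limma on log2(normalized count + 1) was run on the 1021 genes resolved in all 9 libraries whose mean reached 5 normalized counts. A gene entered only with an N2 average under 10, so that rises could be seen and falls hardly. A gene with an N2 average under 5 could reach that mean only through u74. Examples are clec-190, at 0.923 in the N2 average, and tsp-5, at 1.84. The choice of genes thus leans toward rises, and the adjusted p-values below take no account of it. At a Benjamini-Hochberg adjusted p under 0.05, 33 genes (3.23%) rose and none (0%) fell, with 126 at an unadjusted p under 0.05. limma with voom weights on the recovered reads called 28 and none. Against the 3 N2 libraries of large size factor alone 4 genes rose and none fell, with 49 at an unadjusted p under 0.05. These were F14D7.14, str-151, tsp-5 and clec-190. Against the 3 of small size factor alone 174 rose and 562 fell.

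In 13 of the 33 genes every u74 library was above every N2 library, as in 30 (2.94%) of all genes tested, and in 10 (0.979%) every u74 library was below every N2 library. None of these 10 passed limma, and clc-32, a claudin-like gene, had the lowest adjusted p of them (limma adjusted p = 0.356), at 0 in all 3 u74 libraries and 0.549 to 22.6 in N2. F14D7.14, a small gene on V beside spig-5, had 104, 79.6 and 93.3 normalized counts in u74 and from 3.84 to 16.3 in N2, with a median over N2 of 5.03. It rose by 3.73 ± 0.62 on the log2 scale (SE, limma adjusted p = 1.42e-06). Its averages were 92.4 in u74, 707 in e398 and 67.2 in u218. clec-190, a C-type lectin gene on IV, had 20.5, 55.6 and 141 in u74, 4.39 and 1.14 in N2 libraries 1 and 2, and 0 in the other 4. Its change was 5.21 ± 1.02 (SE, limma adjusted p = 6.21e-05), and it was at 0 in e398 and u218. The tetraspanins, 4-pass membrane proteins, gave tsp-4 and tsp-5, which rose by 3.79 ± 0.71 (SE, limma adjusted p = 3.01e-05) and 3.62 ± 0.93 (SE, limma adjusted p = 0.00544). tsp-5 had 28.2, 33.5 and 27.4 in u74 and at most 4.41 in N2. In e398 and u218 the averages were 111 and 66.4 for tsp-4, and 68.5 and 33.7 for tsp-5. clec-174 had 74.9, 60.0 and 72.0 in u74 against at most 17.7 in N2, and str-151 rose by 3.14 ± 0.63 (SE, limma adjusted p = 9.42e-05). In e398 and u218 clec-174 had averages of 58.0 and 59.2, and str-151 of 22.6 and 45.7. T28A11.19 and T28A11.20, which lie next to each other on V, both rose, as did the neighbours T05B4.8, T05B4.9 and T05B4.10 on V. T28A11.19 had 56.5, 112 and 78.9 in u74 and at most 28.3 in N2, with a change of 3.54 ± 0.62 (SE, limma adjusted p = 7.52e-06). Its averages were 11.7 in e398 and 45.9 in u218. nhr-290, a nuclear hormone receptor gene, had 55.9, 45.5 and 21.3 in u74 against at most 16.4 in N2 (limma log2 change 3.51 ± 0.79 SE, adjusted p = 0.000834).

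**Figure D5:**
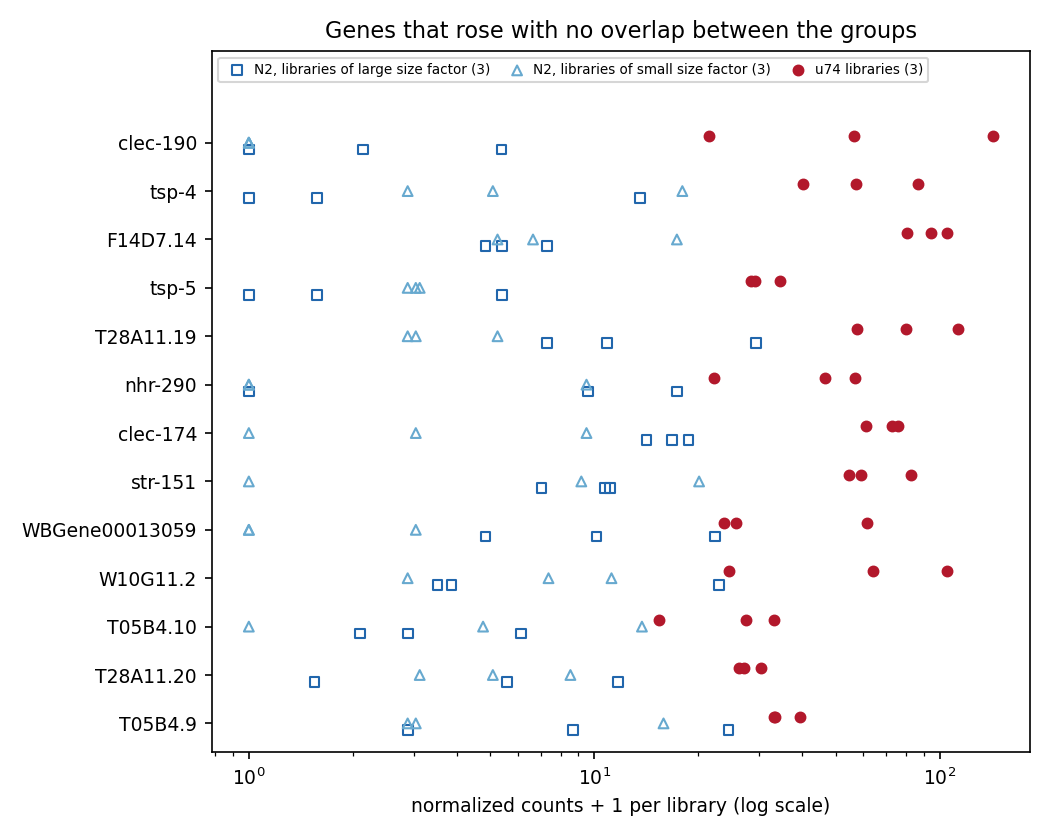
Normalized counts plus 1 in each of the 9 libraries, on a log axis, for the 13 genes that rose in u74 by limma with no overlap between the groups. Open squares and triangles are N2 libraries of large and small size factor, and filled circles are u74 libraries. F14D7.14 lies at 79.6 to 104 in u74 and at most 16.3 in N2.

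In the other 20 genes that rose the groups overlapped. In 18 of these 20, N2 library 1 was the highest N2 library, and in 18 u74 library 3 was the highest of u74. B0281.5, for example, had 10.3, 32.2 and 94.7 normalized counts in u74 and 53.3 in N2 library 1, with at most 2.52 in the other 5. fkh-4, a forkhead transcription factor gene, had 21.0, 25.9 and 85.0 in u74, 34.0 in N2 library 1 and at most 1.26 in the others. clec-222 averaged 61.0 ± 51.1 (SD, n = 3) in u74, with the lowest u74 library under the 26.9 of N2 library 1. Without u74 library 3, 6 of the 33 genes still passed, without library 2 7, and without library 1 17. Beside the 3.23% of all tested genes, limma at an adjusted p under 0.05 called 12 of 293 on chromosome V, 8 of 178 on II, 6 of 150 on X, 6 of 225 on IV, 1 of 67 on III and none of 108 on I.

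A single N2 library can be at most 6 times the N2 average, so a gene whose u74 libraries all exceed 6 times that average is above every N2 library even where those are not resolved. This held for 9 of 6633 genes (0.136%). Beside F14D7.14, clec-190, clec-174, tsp-4, tsp-5, T28A11.19 and str-151 they were F11A5.17 and spig-6. Apart from F11A5.17 and spig-6, these genes had an N2 average under 20, and so entered the 6633 only through their u74 average. The count thus leans toward rises. F11A5.17 had 178, 268 and 165 normalized counts in u74 against an N2 average of 20.6, and 1305 in e398. spig-6 had 210, 171 and 161 against 22.6, with averages of 170 in e398 and 115 in u218. spig-4 and spig-5 were too abundant to be resolved, with u74 averages of 1315 and 1526 against 138 and 52.9 in N2. Both were higher still in e398, at 10369 and 10222, and had 1010 and 1077 in u218. ZK105.13 had 521 in u74 against 20.5 in N2, 492 in e398 and 1007 in u218. C36C5.14 and C36C5.15, adjacent on V, had ratios of 3.22 and 3.81. ZK813.2 on X had 830 in u74 and 177 in N2, but 0 in e398 and 0.335 in u218.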

How the data were processed

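PolyA RNA from whole L4 animals was sequenced; the deposited table holds, per gene and genotype, the signal as averaged normalized counts, per the file headers and name. Division by size factors and averaging were read from the values. Per the submitters' processing notes, HTSeq, bedtools, DESeq2 and DESeq were used, with no version. No source used here gives the aligner, build or strandedness, so reads of overlapping genes cannot be told apart. All 46926 identifiers matched WBcel235 release 115.

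From these values, log2((u74 + 1)/(N2 + 1)) was computed for genes with at least 20 normalized counts in either average and called at 2-fold, with no test. Whole reads per library were recovered from the averages, with exactly 1 solution for all 13788 nonzero u74 values below 350 and all 10346 nonzero N2 values below 10. Values displaced by chance had one in 5.97% and 0.174% of cases. Depth per library is known only as a size factor. Genes with all 9 libraries resolved and a mean of at least 5 were tested with limma 3.58.1 (R 4.3.3, trend). Both steps were tested on simulated data. Other work used Python 3.11.15, NumPy 2.4.6, pandas 2.3.3, SciPy 1.17.1 and Numba 0.67.0.

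Named genes were mec-8, 4 described targets, the 15 highest and 15 lowest ratios at 50 or more, the 10 most abundant on each side at 4-fold, the 12 lowest limma p-values, tissue markers, and in each list the 4 most abundant members and both extremes. Others (among them T28A11.20, T05B4 genes, B0281.5, F11A5.17, rpl-12 relatives, histone and lpr genes) were named after their values were seen. The members and the 84 lists were chosen with earlier results of these data known.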

Additional observations from a re-analysis of the deposited data

Results flagged for a closer look

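For 33 named genes all 6 N2 libraries were resolved, and these are the 33 genes that rose by limma. In 19 of them 1 N2 library stood far from the other 5 by Dixon's criterion at the 95% level. Chance flags about 1 in 20 groups of normally distributed values. These were low counts of genes picked for a rise over N2, so that rate cannot be set against them. In 17 of the 19 the library was N2 library 1, and in all 19 it was the highest. All 19 genes rose in u74 by limma, most of them with overlapping groups.

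N2 library 1 had 4.39 normalized counts of clec-190, 26.9 of clec-222, 45 of tag-276, 50 of C31G12.1, 34 of fkh-4 and 41.2 of gadr-2. It had 40.6 of F17A2.13, 50 of K03A11.1, 37.9 of the pseudogene WBGene00011993, 28 of athp-3, 53.3 of B0281.5 and 25.8 of lido-4. It had 39 of C39B5.2, 44.5 of F12E12.6, 27.5 of F58E1.13, 43.9 of M151.2 and 51.1 of Y49F6A.5. For these 17 genes the median of the 6 N2 libraries was at most 4.83. Outside that library, N2 library 5 had 16.3 normalized counts of F14D7.14 and N2 library 3 had 28.3 of T28A11.19. Leaving out N2 library 1 raised the number of genes called by limma from 33 to 47.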

How the results depend on the processing

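Averages carry no replicate error, N2 libraries were resolved only below an average of 10, and abundant genes were not tested. No paired analysis was possible because the recovered libraries carry no replicate numbers. A count model (quasi-likelihood) on recovered reads was planned and not run, since the deposited unit is not counts. The cause of the following shifts was not tested.

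The 1101 higher genes became 1984 under trimmed-mean scaling and 65 at 4-fold. The 4930 lower genes became 8935 with no minimum and 2944 at 4-fold. The 2850 lower genes with all 3 u74 libraries at or below 0.5 times N2 became 1783 at 0.25 times, and 2917 to 2987 without 1 u74 library. The 33 genes that rose by limma became 4 against the large-size-factor N2 libraries (4 of the same 33), and 174 against the small-size-factor ones, a setting added after the data were seen. They were 6 to 47 without 1 library (6, 7 and 17 without a u74 library, 24 to 47 without an N2 library). The 0 genes that fell by limma became 562 against the small-size-factor N2 libraries, and stayed at 0 in every other setting, leave-one-out included. Other counts stayed within 1.5 times. Of 84 list medians 76 kept their side of 2-fold under all 6 alternatives, and of 526 named genes 499 did under 4; no called value changed sign. Of the 33 limma genes 31 missed the threshold in at least 1 setting, each with the same direction.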
